A study of Homo sapiens with 3 samples.

Results

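The genes described here signal DNA damage or repair it. A list of 48 was grouped by role: checkpoint and chromatin signalling, homologous recombination, end joining, crosslink repair, base excision, ADP-ribose enzymes and mismatch repair. A probe set, the group of short probes that measures a transcript, was used when the array's annotation gave it exactly 1 of these symbols and its mean signal over the arrays was 20 or more. Of 101 probe sets with such a symbol, 82 passed, and they measured 41 of the 48 genes, among 11330 genes measured in all by the same rule. ATRIP, NEIL1 and PMS2 had only probe sets shared with another symbol, and XRCC3 had 1 probe set, below the limit (signals of 10, 7.7 and 25.5 in untreated, 6 h and 24 h cells). BRCA2, FANCA and FANCD2 were not analysed here. The kept probe sets nearest the limit were of RNF168, ATM and POLB (mean signals 21.5, 22.1 and 22.5), and the nearest left out were of RAD52 and XRCC4 (18.7 and 18.4).

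The cells were MM1S, an established human multiple myeloma line, grown in RPMI-1640 with serum. FK866 blocks NAMPT, the enzyme that salvages nicotinamide for NAD synthesis. There were 3 groups of 1 Affymetrix array each: untreated cells, labelled 0 h, and cells kept for 6 h or 24 h in 10 nM FK866. With 1 array per group no test was possible, the spread between cultures is unknown, and time in culture cannot be told apart from FK866. In bulk RNA, fewer cells expressing a gene and less RNA per cell cannot be told apart either.

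DNA damage is read by the kinases ATM and ATR, which act on breaks and on single-stranded DNA and pass the signal to CHEK1 and CHEK2. Double-strand breaks are copied back from the sister chromatid by homologous recombination or rejoined directly by end joining. Damaged bases are cut out by glycosylases, after which an endonuclease, a polymerase and a ligase fill the gap. NAD enters this biology because poly(ADP-ribose) polymerases spend it at breaks, and PARG removes the polymer again.

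The median deposited signal over non-control probe sets was 20.4, 17.4 and 17.2 in untreated, 6 h and 24 h cells, so the arrays did not share one level. The median of all measured genes lay at -0.10 at 6 h and -0.13 at 24 h on the log2 scale. In the gene descriptions below, higher and lower mean against untreated cells on the deposited scale. A small negative difference can therefore lie at or above the median of all genes. The 3' over 5' log2 difference of the GAPDH controls, a sign of RNA quality, was between 0.20 and 0.32, and that of the ACTB controls was 2.25, 2.55 and 2.33 in untreated, 6 h and 24 h cells. The part of this 3' excess in the results was not tested. All 9 plasma cell markers listed were measured, with signals from 423 to 12686, whereas 4 of 18 markers of B, T, NK, myeloid and stromal cells were, with signals from 19.3 to 102. Their summed signal was 184, 165 and 107 in untreated, 6 h and 24 h cells, and its part in the results was not tested. The stromal gene COL1A1 made up 102, 53.4 and 19.3 of it by its brightest probe set, while its other probe set was higher at 24 h (0.52).

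Most repair transcripts lay near their untreated level, as did most genes on the array. Their median log2 difference was -0.05 at 6 h and -0.03 at 24 h, and 29 of 41 members (70.7%) lay within 1.5-fold of untreated cells at both times, against 74.3% of all measured genes. At 6 h, 0 members were at least 2-fold higher (1.46% of all genes were) and 1, SPIDR, at least 2-fold lower (3.12% of all genes). At 24 h, 0 were higher (1.11% of all genes) and 0 lower (4.02%). Between 6 h and 24 h, SPIDR and PARP3 were at least 2-fold higher at 24 h, 4.88% of members against 1.05% of all genes, and 0 members lower (1.84% of all genes). Since 1 gene is 2.44% of the 41 members, counts of 0 or 1 against untreated cells are near the shares of all genes. The share higher between the treated arrays lay above that of all genes and rested on 2 dim genes. Members were also brighter than all genes (median mean signals 383 and 243). Of genes with a mean signal of 250 or more, 0.464% were 2-fold higher and 1.16% lower at 6 h.

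At the smaller size of 1.5-fold, 5 members were higher at 6 h, namely BRCA1, XRCC4, TP53BP1, FANCL and RAD51D, or 12.2% of members against 5.38% of all genes. SPIDR, PARP3 and RAD52 were lower at that size (7.32% against 10.5%). At 24 h only OGG1 was 1.5-fold higher (2.44% against 4.55%), and LIG4, RAD54L, POLB and RAD52 were lower (9.76% against 13.2%). From 6 h to 24 h, SPIDR and PARP3 were higher by that size (4.88% against 4.72%) and FANCL lower (2.44% against 7.56%). Of the 26 members with a mean signal of 250 or more, BRCA1 and FANCL were the 2 that were 1.5-fold higher at 6 h, where 2.2% of 5598 genes of that level were. POLB and RAD54L were the 2 bright members 1.5-fold lower at 24 h, where 7.0% of such genes were.

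These smaller differences depended on how the arrays were scaled and the probe sets combined. Quantile normalization put the median of all genes at 0.03 at 6 h and 0.05 at 24 h, and centring on array medians put it at 0.13 and 0.12. With quantile normalization 7 members were 1.5-fold higher and 3 lower at 6 h (9.09% and 6.41% of all genes), and 4 were higher and 0 lower at 24 h (9.23% and 7.32%). With centring, which adds nearly the same amount to every gene, 9 were higher and 3 lower at 6 h (11.4% and 5.38% of all genes), and 6 were higher and 0 lower at 24 h (10.5% and 6.59%). By the mean over probe sets 1 member, FANCL, was 1.5-fold higher at 6 h (4.48% of all genes) and 0 at 24 h (3.77%). By the same mean PARP3, SPIDR and XRCC5 were 1.5-fold lower at 6 h (10.7% of all genes), and POLB and RAD54L at 24 h (13.4%). The only measure of error at hand is the spread between probe sets of a gene, whose pooled SD over the 25 members with several was 0.37 at 6 h and 0.32 at 24 h on the log2 scale.

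**Figure D1:**
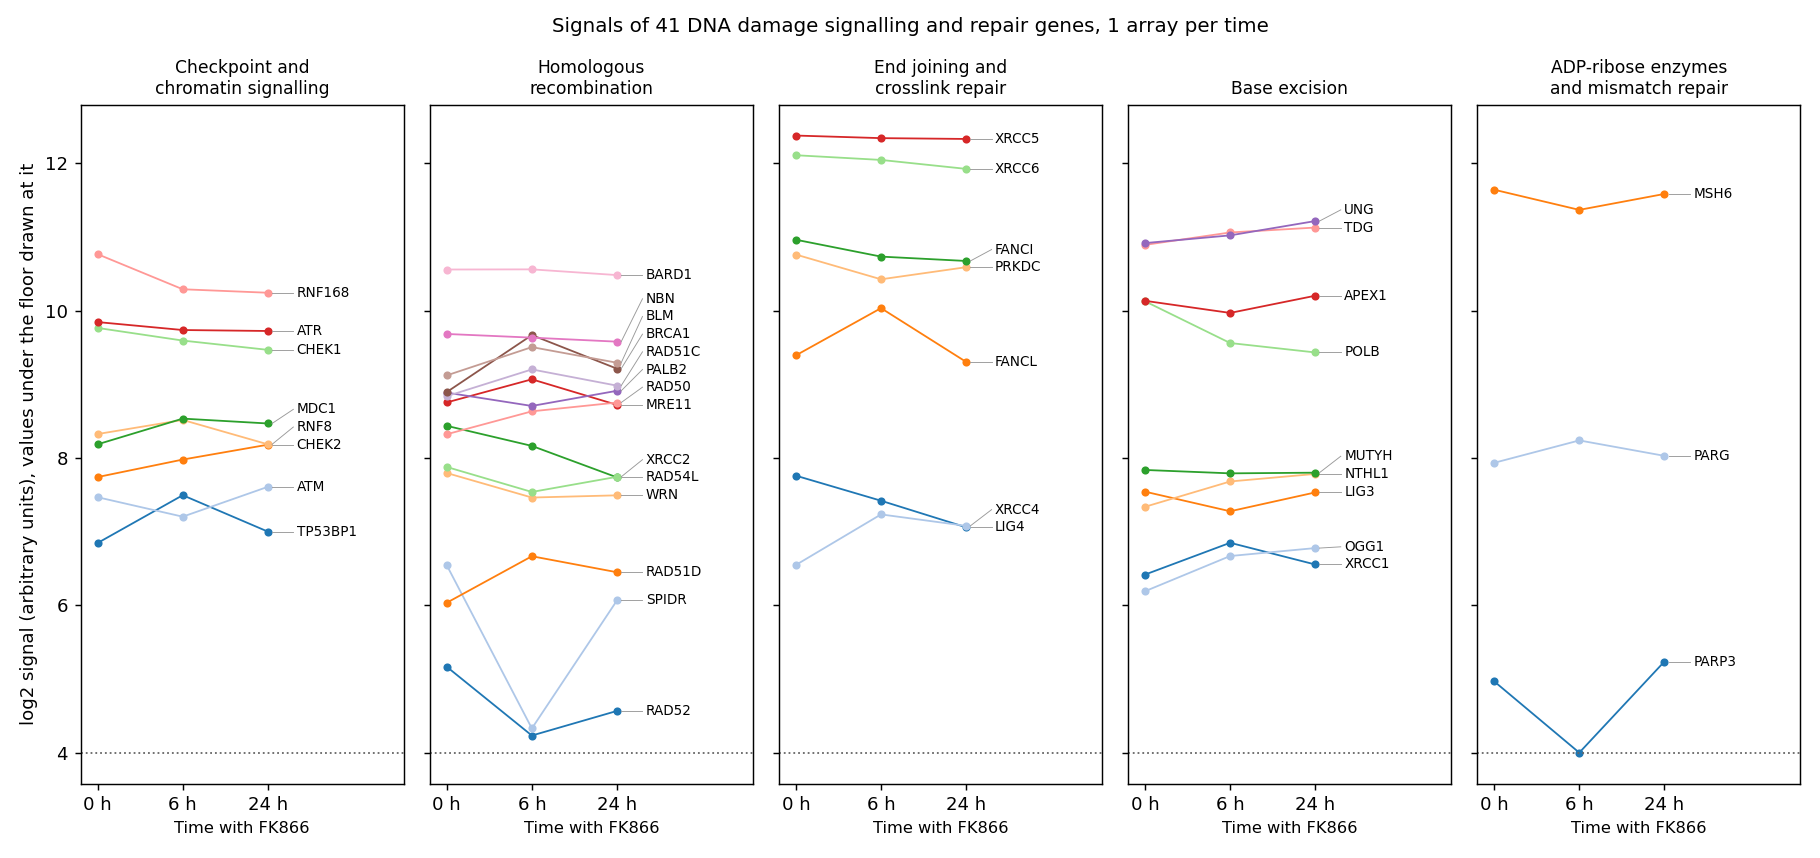
Log2 signal (arbitrary units) of the brightest probe set of each of the 41 measured genes in untreated (0 h), 6 h and 24 h cells, 1 array per time, by role; the dotted line is the floor of 16. Most lines are nearly flat, SPIDR dips from 93.3 to 20.1 at 6 h, and PARP3 reaches the floor there.

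Among the signalling genes, the apical kinases were nearly level and the chromatin-bound mediators differed by small amounts in both directions. ATM, the kinase that breaks activate, had signals of 177, 147 and 195 in untreated, 6 h and 24 h cells, and its 5 probe sets lay on both sides of 0 at each time. ATR, the kinase of stalled replication forks, had signals of 920, 854 and 846, and by its other kept probe set 418, 443 and 446. Its effector kinase CHEK1 had signals of 871, 773 and 708, lower in treated cells by all 4 of its probe sets (-0.90 to -0.20 at 24 h). CHEK2, the effector of ATM, went the other way, with 214, 252 and 290 and a difference of 0.44 at 24 h from its single probe set.

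TP53BP1, which binds damaged chromatin and favours end joining, had signals of 115, 180 and 128, so it was 1.57-fold higher at 6 h by its brightest probe set. The dimmer probe set read 65.5, 51.4 and 40.9, lower at both times, so the probe sets of this gene opposed each other. MDC1, the scaffold that reads phosphorylated H2AX, had signals of 291, 371 and 354, higher in both treated arrays by its brightest probe set. Its dimmer probe set stood at -0.07 at 6 h and 0.13 at 24 h. The ubiquitin ligases that act after MDC1 differed: RNF8 had signals of 321, 366 and 291, and RNF168 had 1743, 1253 and 1212. RNF168 was thus lower in both treated arrays, by 1.39-fold at 6 h and 1.44-fold at 24 h, but its other probe set, near the detection limit, stood at -0.07 and 0.35.

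In homologous recombination, several bright genes peaked at 6 h, while others were dim or lower at 24 h. BRCA1, which directs breaks into recombination, had signals of 476, 814 and 593. This was 1.71-fold higher at 6 h and 1.25-fold higher at 24 h, the highest 6 h value of all 41 members. Its second probe set read 120, 136 and 148, with differences of 0.17 and 0.30, so both lay above untreated cells but by unequal amounts at 6 h. After centring on array medians BRCA1 reached 1.00 on the log2 scale at 6 h, the size counted as 2-fold. BARD1, the partner of BRCA1 in its ubiquitin ligase, did not share this course, with 1508, 1511 and 1432. PALB2, a binding partner of BRCA1 in recombination, had 474, 418 and 482.

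In the complex of MRE11, RAD50 and NBN, which senses and trims break ends, the subunits followed different courses. RAD50 had signals of 320, 397 and 432 and lay above untreated cells by all 3 probe sets at both times (0.05 to 0.70 at 24 h). MRE11, its nuclease, had 432, 537 and 422, and its second probe set was lower than untreated at both times. NBN, the subunit that recruits ATM, had 823, 795 and 765, with 4 probe sets between -0.21 and -0.06 at 24 h, and was the most level of the complex.

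RAD51D, RAD51C and XRCC2, which act together in homologous recombination, had mixed values. RAD51D had signals of 65.6, 102 and 87.4 and was 1.55-fold higher at 6 h, but its other probe set, which alone was left when probe sets that may cross-hybridise were dropped, was at -0.22. RAD51C had 458, 589 and 506, and its dimmer probe set stood at -0.01 and -0.19. XRCC2 went lower, with 235, 186 and 215. The annealing protein RAD52 was dim throughout, with 35.9, 18.8 and 23.7, so that its difference of -0.93 at 6 h rested on signals close to the floor of 16.

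RAD54L, a motor protein that remodels the recombination intermediate, had signals of 347, 287 and 213. It was lower at each time and 1.62-fold lower at 24 h, from its single probe set. The helicase BLM, which dissolves joined chromatids, peaked at 6 h with 557, 727 and 628, and its relative WRN was lower at both times with 222, 177 and 180.

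SPIDR, a scaffold that brings BLM to sites of recombination, was the only member past 2-fold against untreated cells by its brightest probe set. Its signals were 93.3, 20.1 and 67, so the 6 h array was 4.64-fold below the untreated one, the 24 h array 1.39-fold below it and 3.33-fold above the 6 h array. Its 6 h signal was the only one of the 3 near the floor and close to that array's median of 17.4. The log2 difference of -2.21 has no measure of error and rests on 1 probe set, since the other 3 of this gene had mean signals from 3.4 to 12.5. With a floor of 64 its differences were -0.54 at 6 h and 0.07 between the treated arrays, so neither was 2-fold.

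**Figure D2:**
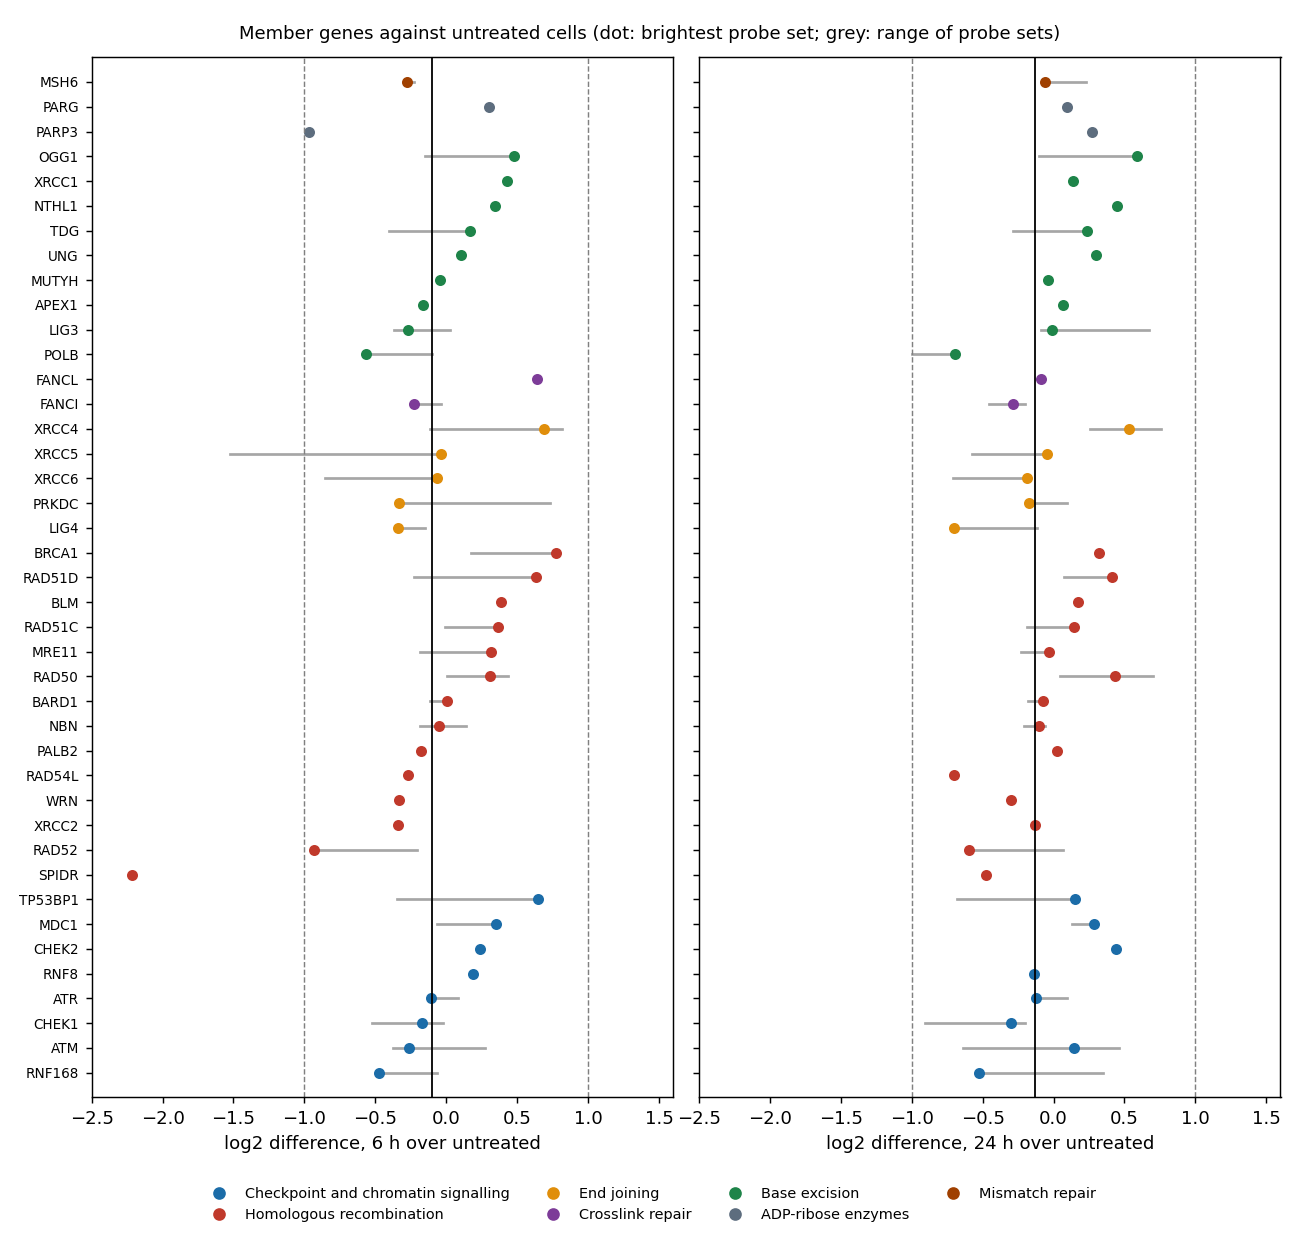
Log2 difference of each measured gene at 6 h (left) and 24 h (right) over untreated cells; dots are the brightest probe set, grey lines the range over its kept probe sets, the solid line the median of all 11330 genes and dashed lines mark 2-fold. SPIDR alone lies past a dashed line by its dot at 6 h, and 0 dots do at 24 h; the PARP3 dot at 6 h is a bound.

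In end joining, the Ku genes gave bright signals that hardly differed between arrays, and the ligation genes differed more. XRCC5, the larger Ku subunit that caps break ends, had signals of 5321, 5193 and 5153, and XRCC6, the smaller one, 4421, 4230 and 3889. Each Ku gene also had a dim probe set that stood lower, at -1.53 for XRCC5 (62.5, 21.7 and 42) and -0.85 for XRCC6 at 6 h. When probe sets that may cross-hybridise were left out, SPIDR had no value. XRCC5, by its dim probe set, was then the 1 member of 26 that was 2-fold lower at 6 h, where 4.06% of all genes were. PRKDC, the kinase that Ku recruits, had 1736, 1376 and 1542, and its 3 probe sets ran from -0.34 to 0.73 at 6 h.

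The ligation step of end joining split by subunit. LIG4, the ligase, had signals of 217, 171 and 133 and was 1.63-fold lower at 24 h, while its dimmer probe set gave -0.12. XRCC4, the protein that stabilises this ligase, had 93.6, 151 and 135, which was 1.61-fold higher at 6 h and 1.44-fold higher at 24 h. At 24 h all 3 XRCC4 probe sets were higher (0.26 to 0.76), while at 6 h 1 of them stood at -0.11. These partners therefore differed from untreated cells in opposite directions on these arrays.

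Of the Fanconi anaemia genes for crosslink repair, FANCI and FANCL were measured. FANCL, the ubiquitin ligase of the pathway, had signals of 673, 1049 and 633, so it was 1.56-fold higher at 6 h and back near untreated at 24 h. The step down from 6 h to 24 h was 1.66-fold, the lowest value among members in that comparison. FANCI, a substrate of that ligase, was lower at each time with 1996, 1703 and 1635, and its 3 probe sets lay between -0.46 and -0.20 at 24 h. Since many recombination and Fanconi genes are expressed with the cell cycle, proliferation genes were read alongside: 10 mitosis genes had a median of 0.43 at 6 h and -0.09 at 24 h, and 14 S phase genes -0.22 and -0.18. The part of these shifts in the values of BRCA1, BLM and FANCL was not tested.

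In base excision, most of the glycosylases were a little higher in treated cells, and the polymerase was lower. OGG1, which removes oxidised guanine, had signals of 73.1, 102 and 110 and was 1.39-fold higher at 6 h and 1.5-fold higher at 24 h. Its second probe set read 75.8, 68.3 and 70.7 and did not share this. NTHL1, which removes oxidised pyrimidines, had 162, 205 and 220. UNG, which removes uracil, had 1934, 2080 and 2380, and TDG, which removes thymine mispaired with guanine, 1902, 2138 and 2239. TDG also had a dimmer probe set that was lower at both times (-0.40 and -0.28). By the mean over probe sets the sign of TDG turned (-0.12 and -0.02), where the median of all genes was -0.12 and -0.15. MUTYH, which removes adenine opposite oxidised guanine, stayed level at 229, 222 and 223.

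The signals of OGG1, NTHL1, UNG and TDG were thus higher at each step from untreated to 6 h to 24 h, as were those of 10.3% of all genes. This order was noticed after the values were seen and has no test. Taking in the glycosylases that are not members, 6 of 10 had it, SMUG1 and NEIL2 being the others, while MPG, MBD4 and NEIL3 did not. By the mean over probe sets 4 of 10 had it (9.67% of all genes), and after quantile normalization 7 of 10 (21.4%).

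The later steps of base excision were mixed. APEX1, the endonuclease that cuts the backbone at the empty site, had signals of 1124, 1003 and 1179. POLB, the gap-filling polymerase, was lower at each time with 1119, 755 and 691, a difference of 1.48-fold at 6 h and 1.62-fold at 24 h, and its dim second probe set was also lower. POLB was the lowest base excision gene at both times. XRCC1, the scaffold of single-strand break repair, had 85.5, 115 and 94, and LIG3, the ligase it binds, 187, 155 and 185. The 5 LIG3 probe sets ran from -0.09 to 0.67 at 24 h.

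The ADP-ribose enzymes and mismatch repair complete the list. PARP3, a mono-ADP-ribosylating enzyme that spends NAD at double-strand breaks, had signals of 31.3, 3.5 and 37.7. Its 6 h signal lay under the floor of 16, so it was at least 1.96-fold lower than untreated at 6 h and at least 2.36-fold higher at 24 h than at 6 h. With a floor of 8, added after the data were seen, the 6 h difference was -1.97, while with a floor of 32 it was 0, so the call depended on how dim signals were treated. PARG, the hydrolase that degrades poly(ADP-ribose), had 245, 302 and 261. MSH6, a mismatch recognition subunit, had 3196, 2644 and 3071, and both of its probe sets were lower at 6 h (-0.27 and -0.23).

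Set side by side, base excision genes lay slightly above double-strand break repair genes in all 3 comparisons. Double-strand break repair here is homologous recombination and end joining together, 19 of 21 genes measured, and base excision 9 of 10. At 6 h the medians were 0.10 for base excision and -0.05 for double-strand break repair, a gap of 0.15. At 24 h they were 0.14 and -0.08, a gap of 0.21, and from 6 h to 24 h 0.10 and -0.08, a gap of 0.18. At 24 h 8 of 9 base excision genes lay above the median of all genes, POLB being the exception, against 11 of 19 double-strand break repair genes. The values of the groups overlapped in each comparison, and the gaps have no test. The gap at 6 h was 0.0084 by the mean over probe sets, and the gap between the treated arrays was -0.0071 when probe sets that may cross-hybridise were left out, where 4 base excision genes were left. The comparisons with untreated cells share that array, so they are not independent of each other.

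**Figure D3:**
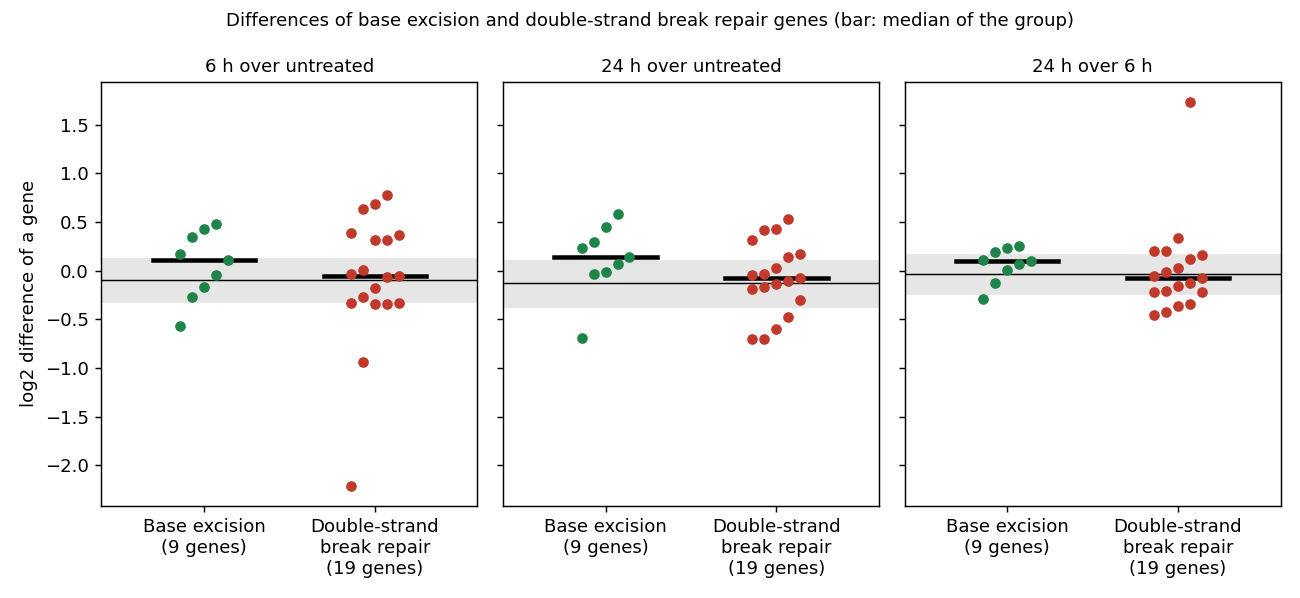
Log2 difference of each base excision gene (green) and double-strand break repair gene (red) in the 3 comparisons; thick bars are group medians, the thin line is the median of all genes and the grey band their middle 50%. The groups overlap throughout, base excision medians are the higher ones by 0.15 to 0.21, and SPIDR is the far point at 6 h and between the treated arrays.

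Repair genes outside the list were near untreated levels too. Of 95 such genes from the same pathways and nucleotide excision repair, 83 were measured. Their median was -0.05 at 6 h and -0.16 at 24 h, with 0 of 83 past 2-fold at 6 h, where 1.46% of all genes were higher and 3.12% lower. At 24 h 1 of 83 was 2-fold higher and 0 lower, against 1.11% and 4.02% of all genes. That gene was NEIL2, a glycosylase for oxidised bases, which was 2.24-fold higher at 24 h from a low signal (26.1, 41.4 and 58.5). The 14 other base excision genes had a median of -0.20 at 24 h, with 6 of 14 above the median of all genes. The higher position of the 9 listed base excision genes was therefore not shared by these 14. Among the other repair genes at 24 h, 21 of homologous recombination had a median of -0.13 and 6 of end joining -0.18. The order of the listed groups at 24 h was thus not seen among these other genes.

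Promoter sequence is shown for 4 genes, picked by their brightest probe sets. OGG1 was the highest member at 24 h, the signalling gene TP53BP1 and XRCC4 were higher at 6 h, and RAD54L was among the lowest at 24 h. Each window holds the 120 bases before a RefSeq start site on GRCh38.p14, read along the gene, and overlaps no annotated gene. Capitals mark CCAAT, the NF-Y type motif, or CCGCCC, the SP1 type motif, on either strand.
OGG1, chr3:9749832-9749951, plus strand: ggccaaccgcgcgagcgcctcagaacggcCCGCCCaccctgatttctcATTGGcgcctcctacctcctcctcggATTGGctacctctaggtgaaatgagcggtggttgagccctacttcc
TP53BP1, chr15:43510641-43510760, minus strand: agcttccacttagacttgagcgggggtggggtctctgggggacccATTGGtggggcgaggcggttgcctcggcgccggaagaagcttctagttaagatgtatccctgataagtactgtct
XRCC4, chr5:83077427-83077546, plus strand: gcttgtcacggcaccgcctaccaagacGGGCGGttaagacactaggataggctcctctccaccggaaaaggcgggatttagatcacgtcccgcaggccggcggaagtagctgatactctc
RAD54L, chr1:46247568-46247687, plus strand: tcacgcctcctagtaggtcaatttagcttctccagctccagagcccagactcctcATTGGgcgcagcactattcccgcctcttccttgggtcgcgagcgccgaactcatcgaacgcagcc
OGG1 held CCAAT at 46 and 72 bases before its start and CCGCCC at 91, counted to the first base of each match. RAD54L held CCAAT at 65, TP53BP1 CCAAT at 75 and XRCC4 CCGCCC at 93.

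RefSeq promoters were found for 34 of the 41 measured members, 52 in all because some genes have several start sites that can overlap. The promoter set used held none for POLB, SPIDR, NBN, WRN, PRKDC, XRCC5 and FANCI, so the shares below leave these genes out. In the 250 bases before each start, CCAAT occurred on either strand in 27 of 52 member promoters (51.9%), against 33.5% of promoters of all measured genes and 32% of all 35116 promoters. Counted per gene, 21 of 34 members (61.8%) held it in at least 1 promoter, against 42.0% of measured genes. It was in 6 of 8 base excision genes and 7 of 14 double-strand break repair genes. CCGCCC was in 65.4% of member promoters against 62.4% for measured genes and 42.6% for all. The E2F type motifs TTTGGCGC and TTTCCCGC, searched on both strands, were in 0 of 52, against 2.96% of promoters of measured genes and 1.93% of all. Shares this small predict few E2F type matches in 52 promoters, so 0 does not set members apart from other genes. Other E2F type sequences were not searched. Motif matches describe letters in a window, and promoters with CCAAT were found among genes higher and lower in treated cells, OGG1 and RAD54L being examples.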

How the data were processed

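Total RNA of 3 samples was measured on 1 Affymetrix array each. The deposited table gives linear intensity values per probe set, and the sources used here do not give how the authors summarised, background-corrected and scaled them; per the labels, cRNA was biotinylated by the manufacturer's procedure. Signals under 16 were set to 16 and log2 values taken. Non-control probe sets with 1 symbol in GEO's platform annotation and a mean deposited signal of 20 or more were kept, and a gene has the value of its brightest kept probe set. Differences are log2 differences between 2 arrays, described at 2-fold and 1.5-fold with no test. Every measured member is named, with signals in all arrays for those 2-fold different and for the 2 highest and 2 lowest of each role group. Of other repair genes, those 2-fold different from untreated cells are named. The glycosylases and further base excision genes were added after their values were seen. The members, lists and sizes were chosen with earlier results of these data known. Alternatives covered scaling, floor, filter, probe set summary, cross-hybridising probe sets and group make-up; a floor of 8 and a mean signal limit of 250 were added after seeing the data. Levels are not compared between genes, because probes differ in response. Promoters come from RefSeq, and a further motif, of NRF1, is not reported. The code was tested on simulated data with changes larger than 2-fold in genes with a mean signal of 250 or more. That test did not cover changes of 1.5-fold or dim genes. Python 3.11.15, numpy 2.4.6, pandas 2.3.3 and matplotlib 3.10.9 were used.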

Additional observations from a re-analysis of the deposited data

How the results depend on the processing

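No paired analysis was possible because each group has 1 array. The same absence of replicates limits every value, and dim genes such as SPIDR, PARP3 and RAD52 are the least certain. Of the recomputed counts, medians and gaps, 108 stayed close to the values above and 21 moved. Close meant within 1.5 times for a count and within the probe set spread over the square root of the number of genes for a median. Of member differences of 2-fold or more, 0 changed sign. Differences of that size were only those of SPIDR at 6 h, and of SPIDR and PARP3 between the treated arrays. Each of these genes had 1 kept probe set, so averaging could not change its value, and a higher floor can only shrink a difference. SPIDR also had no value without cross-hybridising probe sets. The absence of sign changes is therefore no measure of how stable these differences are. Smaller differences did change sign against untreated cells. With centring on array medians, 9 members had the opposite sign at 6 h and 13 at 24 h. With quantile normalization 5 had it at 6 h and 11 at 24 h, and by the mean over probe sets 3 and 6. The number of members 2-fold higher at 6 h became 1 when arrays were centred on their medians (2.65% of all genes). The number 2-fold lower at 6 h became 0 with a floor of 64 (1.02% of all genes) or a mean signal of 250 or more (1.16%), and 2 with a floor of 8 (3.42%). The number 2-fold higher at 24 h than at 6 h became 1 with a floor of 32 (0.335% of all genes), with a mean signal of 50 or more (0.405%) and after leaving out cross-hybridising probe sets (1.08%), and 0 with a floor of 64 (0.177%) or a mean signal of 250 or more (0.161%). Counted at 1.5-fold, 5 were higher and 3 lower at 6 h (5.38% and 10.5% of all genes), 1 higher and 4 lower at 24 h (4.55% and 13.2%), and 1 lower between the treated arrays (7.56%). Relative to the median of all genes, the member median was 0.05 at 6 h, 0.09 at 24 h and -0.01 from 6 h to 24 h. Its 6 h value became -0.041 without the filter, which kept 19775 genes, and -0.095 without cross-hybridising probe sets, which left 26 members. Its 24 h value became 0.016 with a floor of 64 and -0.022 without the filter, and the value from 6 h to 24 h became 0.044 by the mean over probe sets. The gap between base excision and double-strand break repair became 0.0084 at 6 h by the mean over probe sets and -0.0071 between the treated arrays without cross-hybridising probe sets. Apart from the numbers of genes and arrays given here, the cause of these shifts was not tested.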
